A study of Mus musculus with 8 samples.

Results

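Peroxisomal fatty acid oxidation was followed in brown adipose tissue (BAT) of mice through 8 genes, Ehhadh, Hsd17b4, Hacl1, Acot8, Crat, Abcd2, Abcd3 and Pex11a. All probes whose RefSeq accession maps to one of these symbols were taken, which gave 9 probes (2 of Acot8 and 1 of each other gene). The array held 55681 probes in all, for 21154 genes with a named probe, and 15006 of these genes had a probe that was tested. All 9 probes were well above background on each of the 7 arrays that have scanner values, so every gene of the set was tested. Peroxisomes are organelles that shorten fatty acids which mitochondria handle poorly, such as very long-chain, branched and dicarboxylic acids. Transporters of the ABCD family bring the activated acids in, an oxidase and a bifunctional enzyme carry out the first steps of each cycle, a thiolase removes acetyl-CoA, and the shortened acids leave as carnitine esters or free acids. The oxidase passes its electrons straight to oxygen and so produces hydrogen peroxide and heat. Brown fat is rich in peroxisomes, which multiply there in the cold, and many of these genes are targets of the nuclear receptor PPAR-alpha.

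BAT came from male C57BL/6NCrSlc mice that underwent thoracic aortic constriction (TAC) or a sham operation (Sham). TAC narrows the aorta and loads the left ventricle, and both operations were done at 11 weeks of age. The mice were kept at 23 °C on normal chow in both groups, and tissue was taken at 13 weeks of age. The labels disagree on the interval, with 4 weeks in the description but 2 weeks in the treatment protocol and in the source name. There were 4 samples a group, with 1 one-colour Agilent array each, and scanner values were used for Sham replicates 2 to 4 and TAC replicates 1 to 4, while Sham replicate 1 was available here only in a value table of all 8 arrays. In each such array a spot holds a DNA probe for 1 transcript, and its brightness measures the abundance of that transcript relative to other samples.

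Between 54.5% and 64.3% of the spots were well above background on each array. Values below are log2 intensities relative to the 75th percentile of the array, so that 0 is the level of that percentile and a difference of 1 is a doubling. TAC replicate 1 stood apart. The first principal component, with 39.3% of the variance, placed it at 89.6, against -8.57 to 3.58 for the other TAC arrays and -32.5 to -20.3 for the Sham arrays. Because all Sham arrays were in one row of the slide and all TAC arrays in the other, slide row and operation cannot be told apart. Brown adipocyte markers were present in both groups, since all 17 were tested and Ucp1, the uncoupling protein that releases heat, lay between 8.37 and 9.70 on every array. Of 5 liver markers, Alb, Apoa1, Fgb and Ttr were too dim to be tested.

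The point estimate of each of the 8 genes was lower after TAC, at 70.0% (Abcd2) to 84.8% (Pex11a) of the Sham level, but no gene passed an adjusted p of 0.05. The median log2 difference between TAC and Sham over the 8 genes was -0.36, beside -0.027 over all genes tested. A difference below 0 was found in 8 of the 8 genes, and in 55.1% of all genes. At an adjusted p of 0.05 limma called 0 of the 8 genes and 0% of all genes. At an unadjusted p under 0.05 limma placed Acot8, Hacl1 and Hsd17b4 lower, 3 of 8 genes, against 8.06% of all genes, and 0 of 8 higher, against 3.97%. All 4 TAC arrays lay below all 3 Sham arrays for Abcd3, Acot8, Hacl1 and Hsd17b4, 4 of 8 genes, against 10.8% of all genes. TAC replicate 1 was the lowest of the 7 arrays for 8 of the 8 genes, and for 38.2% of all genes. Without this array the median difference over the 8 genes was -0.22, and 7 of 8 were below 0, against 53.2% of all genes. In bulk tissue, fewer cells of a type and less RNA per cell cannot be told apart.

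**Figure D1:**
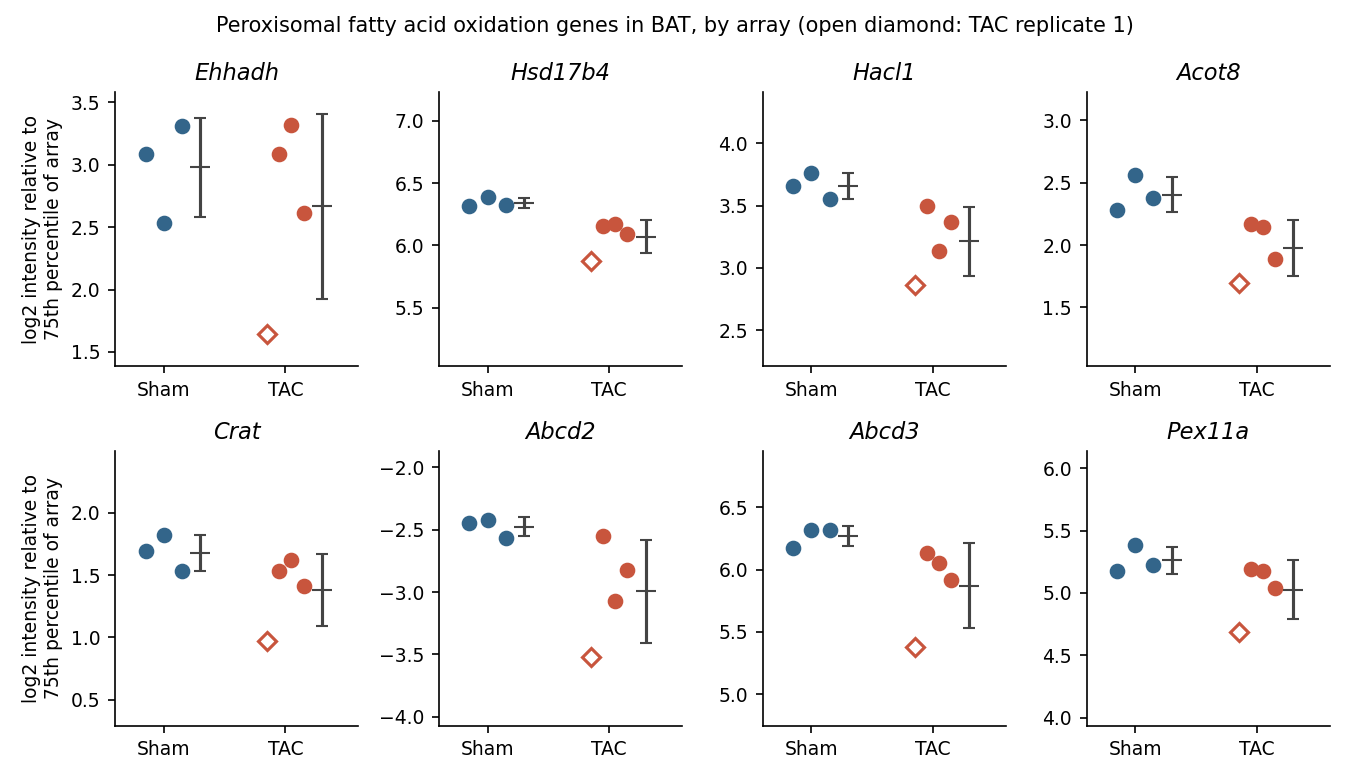
Log2 intensity relative to the 75th percentile of the array (vertical axis, a span of the same width in every panel) of the 8 genes in BAT on 3 Sham arrays (blue) and 4 TAC arrays (red), with the mean and SD of each group in grey. The open diamond, TAC replicate 1, is the lowest point of every panel, and the other 3 TAC points lie below all Sham points in the panels of Hsd17b4, Hacl1, Acot8 and Abcd3.

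The sequence before the annotated start was held by the promoter table for 5 of the genes (Ehhadh, Hacl1, Pex11a, Acot8 and Abcd3). Abcd2, Crat and Hsd17b4 have no entry in it. The promoters of Ehhadh, Hacl1 and Pex11a are shown because they give, for a bifunctional enzyme, a lyase and a division factor whose estimates lay on the same side, the DNA just before the start of transcription. They are the 250 bases upstream of the start in RefSeq (GRCm38.p6), 5′ to 3′ on the gene's strand, which is the minus strand in all of them, at chr16:21787835-21788084 (Ehhadh), chr14:31640966-31641215 (Hacl1) and chr7:79743132-79743381 (Pex11a). Capitals mark the CCAAT box, spelled by its name, and the GC box, spelled GGGCGG, on either strand (ATTGG or CCGCCC where the match is on the other strand).
Ehhadh: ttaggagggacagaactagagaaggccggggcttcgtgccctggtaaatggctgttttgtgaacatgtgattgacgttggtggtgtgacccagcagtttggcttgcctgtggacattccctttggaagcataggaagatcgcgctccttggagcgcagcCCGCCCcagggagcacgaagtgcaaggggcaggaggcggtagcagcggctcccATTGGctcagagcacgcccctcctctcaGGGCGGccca
Hacl1: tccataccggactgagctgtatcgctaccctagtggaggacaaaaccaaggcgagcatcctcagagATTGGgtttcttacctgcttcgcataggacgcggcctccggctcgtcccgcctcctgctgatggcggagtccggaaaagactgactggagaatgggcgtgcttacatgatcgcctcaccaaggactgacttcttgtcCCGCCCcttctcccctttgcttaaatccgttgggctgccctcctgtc
Pex11a: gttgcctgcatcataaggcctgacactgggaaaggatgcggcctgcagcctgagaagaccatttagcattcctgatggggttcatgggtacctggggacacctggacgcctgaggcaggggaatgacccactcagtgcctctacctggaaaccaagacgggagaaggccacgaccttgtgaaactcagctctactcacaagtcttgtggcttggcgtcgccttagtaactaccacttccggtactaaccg
Each of 5 motifs was searched on both strands in the 6 promoters of the 5 genes and in all 32851 promoters of the table, and no match in a promoter of the set overlapped another. CCAAT was found in 3 of the 6 and in 33.8% of all promoters, and GGGCGG in 3 of the 6 and in 32.7%. Ehhadh, Hacl1 and Acot8 hold both. AGGTCA, the hexamer whose direct repeat PPAR-alpha and its partner RXR bind, was in 0 of the 6 and in 14.0% of all. Only exact single hexamers in these 250 bases were searched, so sites that differ in sequence or lie elsewhere are missed. With 6 promoters, a count of 0 does not set them apart from all promoters. TATAAA, at which the basal transcription machinery binds, was in 0 of the 6 and in 12.4% of all. The E box CACGTG was in 0 of the 6 and in 6.02% of all. The 6 promoters held between 8 and 35 CpG dinucleotides, beside a median of 6 over all promoters, of which 43.0% held at least 8. The highest counts, 35 and 34, were both of Abcd3.

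Ehhadh and Hsd17b4 encode the bifunctional enzymes, which hydrate and then dehydrogenate the acyl-CoA in each cycle, Ehhadh mainly for straight-chain and dicarboxylic acids and Hsd17b4 for branched and very long-chain acids and bile acid precursors. Ehhadh was at 3.09, 2.54 and 3.31 on Sham replicates 2 to 4 while TAC replicates 1 to 4 read 1.64, 3.09, 3.32 and 2.62. The groups overlapped, with only TAC replicate 1 below the lowest Sham array and TAC replicate 3 above the highest. The log2 difference was -0.31 ± 0.41 (SE, 95% interval -1.28 to 0.65), with an adjusted p of 0.766 by limma. It turned to 0.031 without TAC replicate 1 (interval -0.61 to 0.67), so the sign of this estimate rests on that array. Hsd17b4 was at 6.31, 6.39 and 6.33 on the Sham arrays and at 5.88, 6.15, 6.17 and 6.09 on the TAC arrays. All TAC values lay below these 3 Sham values, whose SD was 0.038. Sham replicate 1, which was not among them, lay below TAC replicates 2 and 3 in the value table. The difference was -0.27 ± 0.098 (SE, interval -0.50 to -0.04), or 82.9% of the Sham level, with an unadjusted p of 0.028 and an adjusted p of 0.347 by limma. Without TAC replicate 1 it was -0.20 (interval -0.38 to -0.030).

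Hacl1 encodes 2-hydroxyacyl-CoA lyase, which removes a single carbon in the alpha-oxidation of phytanic acid, the step that makes a 3-methyl-branched acid fit for beta-oxidation. Its values were 3.65, 3.76 and 3.55 on the Sham arrays and 2.86, 3.49, 3.13 and 3.37 on the TAC arrays. All TAC arrays lay below the lowest of these Sham arrays, although TAC replicate 2 did so by a small margin. Sham replicate 1, which was not among them, lay below TAC replicate 2 in the value table. The difference of -0.44 ± 0.16 (SE, interval -0.82 to -0.064), or 73.6% of Sham, had an unadjusted p of 0.0278 and an adjusted p of 0.346 by limma. Without TAC replicate 1 it was -0.32 (interval -0.61 to -0.035).

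Acot8 and Crat act at the end of the pathway. Acot8 is a peroxisomal thioesterase that frees fatty and bile acids from coenzyme A, and Crat, carnitine acetyltransferase of peroxisomes and mitochondria, moves acetyl and other short acyl groups to carnitine for export. The brighter probe of Acot8 read 2.28, 2.56 and 2.37 on the Sham arrays and 1.69, 2.17, 2.15 and 1.89 on the TAC arrays. All TAC values were below these Sham values, with TAC replicates 1 and 4 the lowest. Sham replicate 1, which was not among them, lay below TAC replicates 2 and 3 in the value table. The difference was -0.43 ± 0.14 (SE, interval -0.77 to -0.088), with an unadjusted p of 0.0206 and an adjusted p of 0.323 by limma, the smallest of the 8 genes. The other probe of Acot8 read 1.49, 1.79 and 1.80 on the Sham arrays and 1.04, 1.47, 1.55 and 1.34 on the TAC arrays. On this probe TAC replicate 3 lay within the Sham range, and its difference was -0.34 ± 0.15 (SE), with an adjusted p of 0.400 by limma. Crat was at 1.69, 1.82 and 1.53 on the Sham arrays and at 0.97, 1.53, 1.62 and 1.41 on the TAC arrays. Its groups overlapped through TAC replicate 3, while TAC replicate 2 was level with the lowest Sham array. The difference was -0.30 ± 0.17 (SE, interval -0.70 to 0.10), with an adjusted p of 0.493 by limma, and it was -0.16 without TAC replicate 1.

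Abcd2 and Abcd3 encode transporters of the peroxisomal membrane. Abcd2 carries very long-chain and polyunsaturated acyl-CoA, and Abcd3, also called PMP70, carries long-chain, branched and dicarboxylic acyl-CoA. Abcd2 was at -2.45, -2.42 and -2.57 on the Sham arrays and at -3.52, -2.55, -3.07 and -2.83 on the TAC arrays. TAC replicate 2 lay within the Sham range and the other 3 TAC arrays below it. The difference of -0.51 ± 0.22 (SE, interval -1.03 to 0.0018), or 70.0% of Sham, had an adjusted p of 0.391 by limma. This estimate depended on the background correction, since it was -0.30 with normexp. Abcd3 was at 6.18, 6.31 and 6.32 on the Sham arrays and at 5.38, 6.14, 6.05 and 5.91 on the TAC arrays. All TAC arrays lay below these Sham arrays, TAC replicate 2 by the smallest margin. Sham replicate 1, which was not among them, lay below TAC replicates 2 and 3 in the value table. The difference was -0.40 ± 0.19 (SE, interval -0.84 to 0.038), with an adjusted p of 0.424 by limma. Without TAC replicate 1 the difference was -0.34 for Abcd2 (interval -0.69 to 0.015) and -0.24 for Abcd3 (interval -0.46 to -0.0095).

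Pex11a encodes a membrane protein that elongates peroxisomes before they divide and is induced by peroxisome proliferators. It was at 5.18, 5.38 and 5.23 on the Sham arrays and at 4.69, 5.19, 5.18 and 5.04 on the TAC arrays. TAC replicates 2 and 3 lay within the Sham range, and TAC replicates 1 and 4 below it. The difference was -0.24 ± 0.14 (SE, interval -0.58 to 0.099), with an adjusted p of 0.511 by limma, and it was -0.13 without TAC replicate 1.

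The difference did not have the same size on every TAC array. The distance of the 8 genes from their Sham means ranged from -1.33 (Ehhadh) to -0.47 (Hsd17b4) on TAC replicate 1, from -0.23 to 0.11 on TAC replicate 2, from -0.60 to 0.34 on TAC replicate 3 and from -0.51 to -0.23 on TAC replicate 4. The median distance was -0.75, -0.14, -0.19 and -0.32 on these arrays in turn, beside -0.034 to 0.080 on the Sham arrays. On TAC replicates 1 and 4 the value lay below the Sham mean for 8 of 8 genes, and on TAC replicates 2 and 3 for 7 of 8, with Ehhadh above it. Over all genes 59.2%, 53.2%, 53.9% and 52.5% lay below the Sham mean on TAC replicates 1 to 4. At an unadjusted p under 0.05 by limma, 4 of the 8 genes (Abcd3, Acot8, Hacl1 and Hsd17b4) were lower without TAC replicate 1, against 8.01% of all genes. Without TAC replicate 1 but with Sham replicate 1, in the value table, limma gave them unadjusted p of 0.19, 0.085, 0.056 and 0.14. In that fit, chosen after the data were seen, only Abcd2 of the 8 genes was under 0.05 (0.021).

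Sham replicate 1, which entered only through the value table, was the lowest Sham array for 6 of the 8 genes, all but Ehhadh and Abcd2. In that table the 7 arrays with scanner values read slightly higher than on the scale used above, so values of the table are compared only with each other. Hsd17b4 was there at 6.27 on Sham replicate 1, between TAC replicate 4 (6.26) and TAC replicate 2 (6.33), and at 6.52 to 6.57 on the other Sham arrays. Abcd3 was at 6.13 on Sham replicate 1, below TAC replicates 2 (6.31) and 3 (6.23). Hacl1 was at 3.59, below TAC replicate 2 (3.67), and Acot8 at 2.26, below TAC replicates 2 (2.35) and 3 (2.33). Abcd2 went the other way, with -1.97 on Sham replicate 1 as its highest value of the 8 arrays. With Sham replicate 1 no gene of the set had all 4 TAC arrays below all Sham arrays, 0 of 8, against 6.51% of all genes. The fit on this table gave differences between -0.61 ± 0.20 (SE, Abcd2) and -0.22 ± 0.10 (SE, Hsd17b4), with adjusted p between 0.263 and 0.724 by limma. At an unadjusted p under 0.05, Abcd2 (0.0155), Hacl1 (0.0282) and Acot8 (0.0363) were lower in this fit by limma, 3 of 8 genes, against 8.92% of all genes, while Hsd17b4 was at 0.062. The count of 3 of 8 genes lower at an unadjusted p under 0.05 by limma on the 7 arrays also depended on single arrays, as did the share of all genes. It was 1 without Sham replicate 2 (6.34% of all genes), 0 without Sham replicate 3 (3.94%) and 2 without Sham replicate 4 (5.81%). Leaving out a TAC array gave 5 without TAC replicate 2 (8.14% of all genes), 2 without TAC replicate 3 (6.98%) and 1 without TAC replicate 4 (6.74%).

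**Figure D2:**
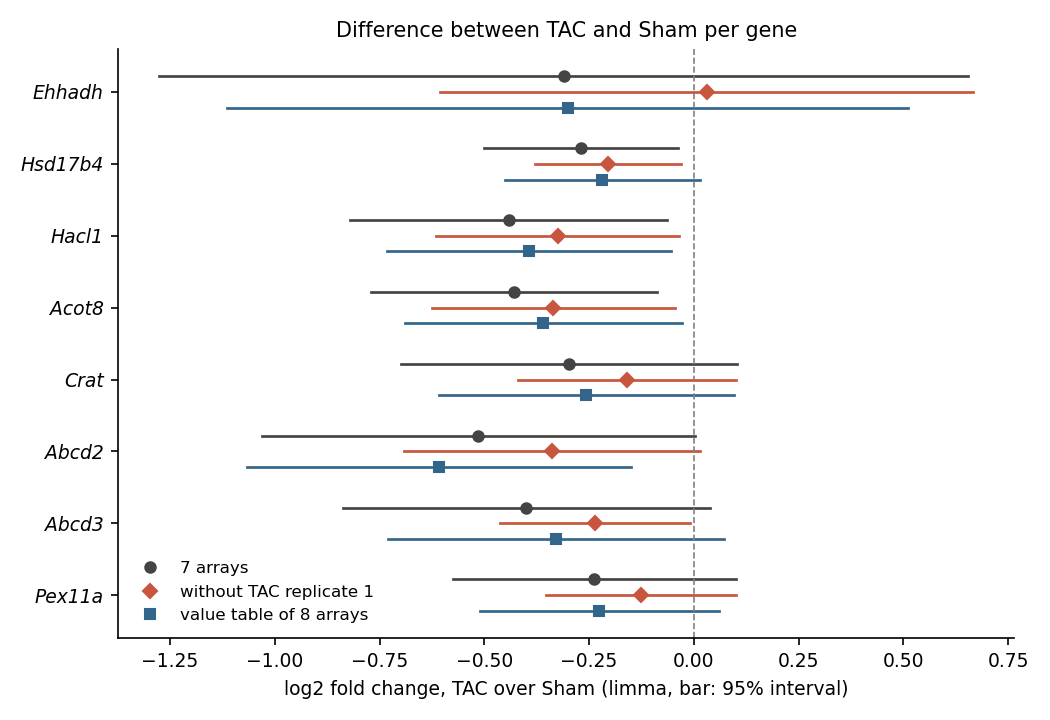
Log2 difference between TAC and Sham (horizontal axis, limma estimate with its 95% interval) for each gene over the 7 arrays with scanner values (grey circles), without TAC replicate 1 (red diamonds) and in the value table of 8 arrays (blue squares). All estimates are below 0 except that of Ehhadh without TAC replicate 1 (0.031), and most intervals reach 0.

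Other enzymes and carriers of peroxisomal beta-oxidation were described through 23 genes, all tested, among them Abcd4, a lysosomal relative of the peroxisomal transporters. Of these 20 were lower and 3 higher by their point estimate, with a median difference of -0.19 (-0.12 without TAC replicate 1), and 0 passed an adjusted p of 0.05 by limma. At an unadjusted p under 0.05 by limma, 4 were lower and 0 higher, against 8.06% and 3.97% of all genes. Nudt7, a hydrolase that degrades coenzyme A and its esters in peroxisomes, was at 5.18, 5.33 and 5.23 on the Sham arrays and at 4.28, 4.82, 4.45 and 4.62 on the TAC arrays. All TAC arrays lay clearly below these Sham arrays, which did not include Sham replicate 1. The difference was -0.71 ± 0.14 (SE), with an adjusted p of 0.197 by limma. Acox2, the oxidase of bile acid precursors and branched acids, differed by -0.79 ± 0.18 (SE, adjusted p = 0.209 by limma). Nudt19, another peroxisomal coenzyme A hydrolase, differed by -0.39 ± 0.14 (SE, adjusted p = 0.335 by limma). Slc25a17, a carrier of cofactors in the peroxisomal membrane, was the other gene lower at an unadjusted p under 0.05, with a difference of -0.41 ± 0.16 (SE), and was named after its value was seen.

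Estimates for the partners and relatives of the 8 genes that are given here lay between -0.29 (Abcd4) and 0.036 (Acaa1a). The thiolases Acaa1a and Acaa1b, which close the cycle, differed by 0.036 ± 0.11 (SE) and -0.091 ± 0.15 (SE), and Acaa1b by 0.025 without TAC replicate 1. Scp2, whose long form is the thiolase of branched acids, differed by -0.090 ± 0.090 (SE). Crot, which makes carnitine esters of medium-chain acids as Crat does of short ones, differed by -0.15 ± 0.091 (SE). Abcd4, a relative of the transporters that sits in lysosomes and carries cobalamin, differed by -0.29 ± 0.18 (SE). Pex11g, a paralog of Pex11a, differed by -0.080 ± 0.11 (SE). None of these 6 genes had an adjusted p below 0.516 by limma.

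Most genes that build and divide peroxisomes lay on the same side. Of 18 tested genes for peroxins and division, 17 were lower and 1 higher, with a median of -0.18 (-0.098 without TAC replicate 1). For 8 of them all 4 TAC arrays were below all 3 Sham arrays, against 10.8% of all genes. Sham replicate 1 was not among these arrays. At an unadjusted p under 0.05 by limma, 4 were lower, against 8.06% of all genes, and 0 passed the adjusted threshold. The smallest p belonged to Mff, a receptor for the fission machinery of peroxisomes and mitochondria (-0.31 ± 0.097, SE), and Pex14, part of the import channel (-0.40 ± 0.14, SE). Their adjusted p by limma was 0.306 and 0.336. In alpha-oxidation and ether lipid synthesis, 5 of 7 tested genes were lower and 2 higher, with a median of -0.014 (-0.0034 without TAC replicate 1). Here 2 were lower at an unadjusted p under 0.05 by limma, against 8.06% of all genes. The smallest p there belonged to Tmem189, the desaturase that makes plasmalogens (-0.30 ± 0.10, SE), Phyhd1, a relative of phytanoyl-CoA hydroxylase (-0.23 ± 0.083, SE), and Far1, which makes fatty alcohols for ether lipids (0.30 ± 0.17, SE). Phyh itself, whose product passes to Hacl1, differed by -0.014 ± 0.082 (SE) and was named after its value was seen. Of 13 tested genes for other proteins of the peroxisomal matrix and membrane, 10 were lower and 3 higher, with a median of -0.13 (-0.070 with 8 lower, without TAC replicate 1). Cat, the catalase that removes hydrogen peroxide, differed by -0.35 ± 0.12 (SE), the insulin-degrading enzyme Ide by -0.40 ± 0.12 (SE) and the D-aspartate oxidase Ddo by -0.31 ± 0.13 (SE), with adjusted p of 0.322, 0.297 and 0.387 by limma.

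**Figure D3:**
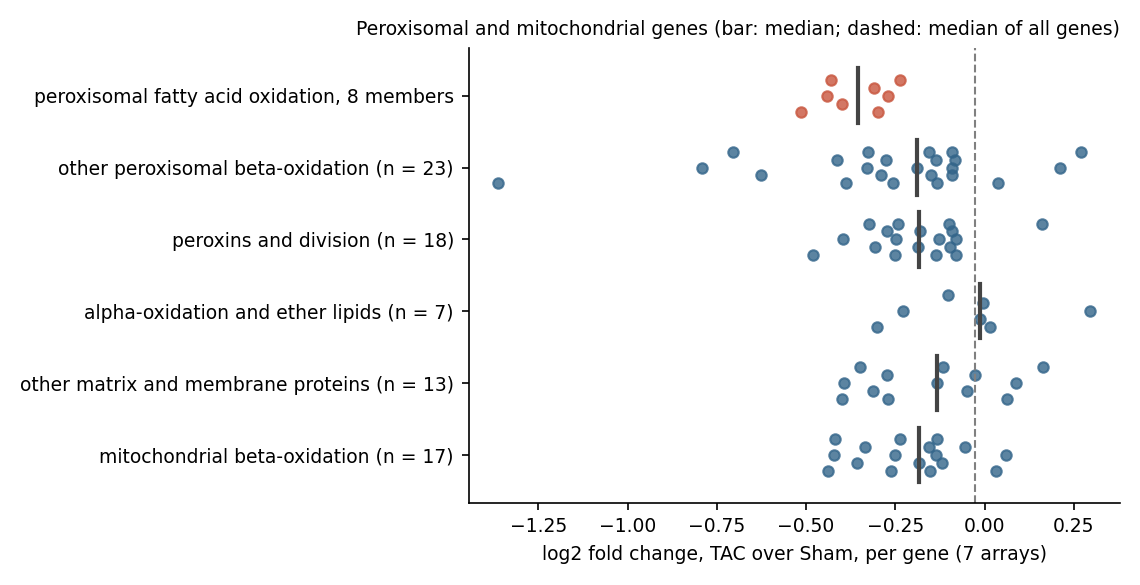
Log2 difference between TAC and Sham over the 7 arrays (horizontal axis) for each tested gene (points) of the 8-gene set (red) and of other peroxisomal and mitochondrial lists (blue), with the median of each list as a bar and the median of all genes (-0.027) as a dashed line. The bar of the 8 genes lies at -0.36, those of other peroxisomal beta-oxidation, of peroxins and of mitochondrial beta-oxidation between -0.19 and -0.18, and that of alpha-oxidation and ether lipids at -0.014.

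Mitochondrial beta-oxidation, the larger route for common fatty acids, was set beside the 8 genes without a test between the lists. Of its 17 genes 15 were lower and 2 higher, with a median of -0.18 (-0.099 without TAC replicate 1). For 6 of them all 4 TAC arrays were below all 3 Sham arrays, against 10.8% of all genes. Hadha, the alpha subunit of the trifunctional protein, Etfdh, which hands the electrons to the respiratory chain, and Cpt2, which re-forms acyl-CoA inside mitochondria, had the smallest p, with differences of -0.42 ± 0.14, -0.42 ± 0.16 and -0.44 ± 0.18 (SE) and adjusted p of 0.318, 0.363 and 0.373 by limma. On TAC replicate 1 the mean of the list was -0.50 from the Sham mean and on the other TAC arrays -0.14 to -0.067, while the mean of the 8 peroxisomal genes was -0.82 and -0.33 to -0.11.

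Ppara, which encodes PPAR-alpha, was at 6.24, 6.62 and 6.49 on the Sham arrays and at 6.30, 6.29, 6.41 and 6.21 on the TAC arrays. Only TAC replicate 4 was below the lowest Sham array, and the difference was -0.15 ± 0.11 (SE), with an adjusted p of 0.592 by limma. Of 12 genes for PPAR-alpha and its partners, 6 were lower and 6 higher, with a median of -0.00025 (0.067 without TAC replicate 1), and 0 had an unadjusted p under 0.05 or passed the adjusted threshold by limma. The smallest p belonged to the corepressor Ncor1 (0.19 ± 0.095, SE), Ppara and Ppard (-0.13 ± 0.10, SE). Mitochondrial and cytosolic targets of PPAR-alpha differed in both directions. Of 21 tested targets 16 were lower and 5 higher, with a median of -0.18. Acaa2, Acadl, Acadm, Acadvl, Cpt1b, Cpt2, Hadha, Hadhb and Slc25a20 are also in the list of mitochondrial beta-oxidation. The median of both lists is the value of Cpt1b, so these 2 lists are not separate observations. Hadha and Cpt2 were the 2 targets lower at an unadjusted p under 0.05 by limma, and 3 were higher, against 8.06% and 3.97% of all genes. All TAC arrays lay below all 3 Sham arrays for 6 of the 21, Hadha and Cpt2 among them, against 10.8% of all genes. They lay above these 3 arrays for 2 of the 21, against 5.36% of all genes. Sham replicate 1 was not among these arrays. Angptl4, a secreted inhibitor of lipoprotein lipase, lay between 7.29 and 7.77 on the Sham arrays and between 7.88 and 8.46 on the TAC arrays, and Vnn1, a pantetheinase, between -2.23 and -1.81 and between -1.53 and -0.51. These are the 2 targets with every TAC array above each of the 3 Sham arrays. Their differences were 0.67 ± 0.18 (SE, adjusted p = 0.255 by limma) and 0.90 ± 0.25 (SE, adjusted p = 0.262 by limma).

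The mean of the brown adipocyte markers was, like that of the 8 genes, lowest on TAC replicate 1. That array was the lowest for 13 of the 17 markers, against 38.2% of all genes. The part of these markers in the result was not tested. Of the 17 markers 15 were lower and 2 higher by their point estimate, with a median of -0.19. By limma 3 were lower at an unadjusted p under 0.05, against 8.06% of all genes, and 0 passed the adjusted threshold. Their mean lay between -0.13 and 0.17 on the Sham arrays, at -1.0 on TAC replicate 1 and at -0.43 to -0.077 on TAC replicates 2 to 4. Otop1, a proton channel, differed by -0.90 ± 0.32 (SE), Ucp1 by -0.61 ± 0.21 (SE) and Plin1, which coats lipid droplets, by -0.35 ± 0.15 (SE), with adjusted p of 0.335, 0.336 and 0.384 by limma. Macrophage markers ran the other way on TAC replicate 1 alone. All 15 were tested, 12 higher and 3 lower, and their mean was 1.20 on that array, against -0.41 to -0.13 on the other TAC arrays and -0.18 to 0.20 on the Sham arrays. The mean of the 8 tested lymphocyte markers (7 higher, 1 lower) was 1.08 on TAC replicate 1, against -0.32 to -0.0045 and -0.15 to 0.21. Of the B cell markers in this list, Cd79a and Ms4a1 were too dim to be tested, while Cd79b was detected on all 7 arrays and was highest on TAC replicate 1 (-0.86, against -2.34 to -1.21 on the Sham arrays). The 14 skeletal muscle markers were all higher by their point estimate, but their mean ranged from -0.97 to 0.95 within the Sham group and from -0.73 to 1.59 within the TAC group. Without TAC replicate 1 the median of the macrophage markers was -0.31, that of the lymphocyte markers -0.18 and that of the brown adipocyte markers -0.16, beside -0.22 for the 8 genes.

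**Figure D4:**
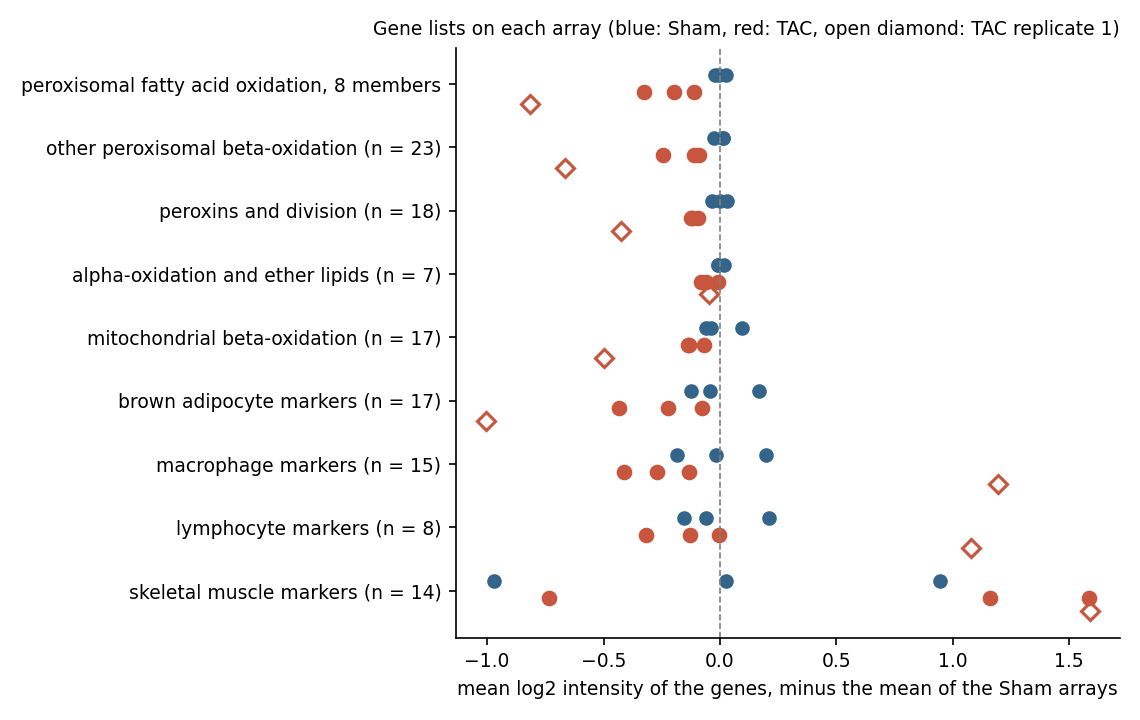
Mean log2 intensity of the genes of each list minus the mean of the 3 Sham arrays (horizontal axis), on each Sham array (blue) and TAC array (red), with TAC replicate 1 as an open diamond. The diamond lies at -0.82 for the 8 genes, at -1.0 for brown adipocyte markers and at 1.20 for macrophage markers, while the other TAC arrays lie between -0.33 and -0.11 for the 8 genes.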

How the data were processed

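BAT total RNA was labelled with Cy3 and hybridized by the authors to one-colour Agilent arrays, and spots were extracted with Agilent Feature Extraction 10.7.1.1 according to the submitters' processing notes. The deposited scanner values are intensities, background-subtracted and linear, of 7 arrays. The deposited value table covers 8 arrays, with a 75th percentile near 1 on each. For the 7 arrays with scanner values it holds the same intensities as a constant multiple per array, checked on the brighter probes. This could not be checked for Sham replicate 1. The 59305 spots that are not controls were read, 134 to 191 outlier spots per array were left out, saturated spots (at most 1 per array) were kept, intensities were converted to log2, the 75th percentile of the array was subtracted, and spots of a probe were averaged. Testing required a signal well above background in 3 or more arrays and a measured value in 2 or more per group, which left 33378 probes. TAC was compared with Sham by limma 3.58.1 (lmFit, eBayes) under R 4.3.3, without a replicate block, with Benjamini-Hochberg adjustment over all probes tested. The code was tested on simulated data. Every p-value given by limma is from this comparison, or from the same functions in an alternative named beside it. Symbols were assigned to the accessions of the array through a RefSeq gene table, which named 28026 probes (50.3%) and 94.1% of those with a RefSeq accession. The probe with the highest mean stands for a gene. The labels call the samples of a group independent, and the number of arrays limits the precision.

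The members and gene lists were chosen with earlier results of these data known. Named were all members, the partners and relatives listed in the text, and every list gene past an adjusted p of 0.05. Also named were the 3 genes of each peroxisomal, mitochondrial, PPAR and brown adipocyte list with the smallest p. Alternatives were normexp background correction (offset 50), median centring, quantile normalization, the value table (8 arrays, or the same 7 arrays), dim probes kept, detection required on all 7 arrays, the methods' t-test, the replicate block, each array left out and a mean over the probes of Acot8. The table without TAC replicate 1 was added after the data were seen. Other statistics of the authors were not used. A few genes that the rule gives are not reported here.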

Additional observations from a re-analysis of the deposited data

How the results depend on the processing

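Over 19 alternatives, 142 of 145 values of the 8 genes were lower after TAC, but these values are not all separate. With dim probes kept, with detection required on all 7 arrays and by the t-test, the differences are those of the main fit. The replicate block repeats the differences without TAC replicate 1 on 7 arrays, and those of the value table on 8 arrays. For these alternatives the direction could not change anew. Of these values 0 passed an adjusted p of 0.05, by limma or by the methods' t-test. The smallest was 0.222 by limma (Acot8 with normexp), and the mean over the probes of Acot8 was not tested. The 3 changes of sign were all of Ehhadh, at 0.031 without TAC replicate 1, 0.031 with the replicate block on 7 arrays, which leaves that array without a partner, and 0.037 in the table without TAC replicate 1, an alternative chosen after seeing the data. Leaving out 1 array moved Ehhadh between -0.53 and 0.031. The median of the 8 genes ranged from -0.47 to -0.16, and from -0.47 to -0.22 when 1 array was left out. Over all probes, 1 lower call appeared with normexp, 1 lower call with median centring, and 0 to 6 higher and 0 to 1 lower calls when 1 array was left out, the most without TAC replicate 4. Counts at an unadjusted p under 0.05 by limma, 1462 higher and 2817 lower, were 892 and 1605 without Sham replicate 3. The methods' t-test gave 0 probes after Benjamini-Hochberg and 1602 higher and 2589 lower at its unadjusted threshold of 0.05.

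Whether the replicate numbers pair the samples was not settled. In the scanner values, same-numbered arrays had correlations of deviations of -0.026 to 0.0016, and 0 of 6 arrays were closest to their own number. These values hold no pair for replicate 1. With all 8 arrays, in the value table, the correlations were 0.020 to 0.27, the highest for replicate 1. Here 2 of 8 arrays were closest to their own number. With so few arrays, these checks cannot exclude a pairing. With the replicate block, 1 of the 8 genes on 7 arrays and 6 in the table of 8 arrays had an unadjusted p under 0.05 by limma, against 3 in each fit without it, while 6.59% and 9.55% of all genes were lower at that threshold. Slide row and operation cannot be told apart, and with 3 and 4 arrays the interval of a gene spans 0.46 (Hsd17b4) to 1.93 (Ehhadh) on the log2 scale.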

Other observations

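Of 8 endothelial markers 7 were higher and 1 lower by their point estimate, with a median of 0.084 (0.054 without TAC replicate 1 and 0.028 without Sham replicate 3). Their mean lay between 0.049 and 0.20 on the TAC arrays and between -0.053 and 0.034 on the 3 Sham arrays, but in the value table Sham replicate 1 (0.045) was above TAC replicate 2 (0.016). At an unadjusted p under 0.05 by limma 2 were higher, Emcn, a sialomucin of capillaries and veins, by 0.39 ± 0.12 (SE) and Tie1, a receptor of the angiopoietin pathway, by 0.34 ± 0.12 (SE), against 3.97% of all genes, and 0 passed an adjusted p of 0.05. Of 7 tested white adipocyte markers 4 were higher and 3 lower, and of 8 fibroblast markers 5 were higher and 3 lower, with medians of 0.071 and 0.048. Neither direction held in the value table of 8 arrays, where the medians were -0.088 and -0.0094, and that of the fibroblast markers was -0.089 without TAC replicate 1 and -0.068 without Sham replicate 3. Serpina1a, the only liver marker tested, differed by -0.67 ± 0.23 (SE, adjusted p = 0.331 by limma), and by -0.26 with normexp.

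Among the targets of PPAR-alpha, 3 were higher and 2 lower at an unadjusted p under 0.05 by limma, against 3.97% and 8.06% of all genes. Beside Angptl4 and Vnn1 the third higher one was Fabp3, which carries fatty acids in heart, muscle and brown fat, with a difference of 0.31 ± 0.11 (SE, adjusted p = 0.350 by limma), named after its value was seen. Without TAC replicate 1 the differences of these genes were 0.63 (Angptl4), 0.71 (Vnn1) and 0.28 (Fabp3).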
